A study of Mus musculus with 96 samples.

Results

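The cytosolic ribosomal protein genes were described across 48 single mouse embryonic stem (ES) cells. The members were the gene rows whose symbol begins with Rpl or Rps and a digit, together with Rplp0, Rplp1, Rplp2 and Rpsa. Symbols of named pseudogenes, of the S6 kinases and 1 further symbol were set aside by the rule, and a member had to average 10 reads or more over the cells. The rule took 85 genes of the 23284 gene rows, and of the 11746 rows that passed the same minimum. All 85 passed it: none fell outside, and the nearest inside was Rpl3l with a mean of 10.8 reads. Of the 85, 30 encode canonical proteins of the small subunit, 43 canonical proteins of the large subunit and 3 the P stalk, and 8 are paralogs of canonical genes. Rps19bp1, which the symbol pattern also took, encodes a binding partner of Rps19 and not a ribosomal protein.

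The cells were J1 ES cells, an established male mouse line, grown without feeder cells in medium with fetal bovine serum and leukaemia inhibitory factor (LIF). Each cell was captured and lysed on a microfluidic chip, its cDNA was amplified with the SMARTer kit, and its library was read on 2 sequencing lanes, which were summed. The study's labels give a single group and name no separate cultures, so no condition could be compared. Cells held 4408953 to 9767245 reads (median 7054853) and 8039 to 10291 genes with a read.

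The cytosolic ribosome joins a small subunit, which reads the messenger RNA, to a large subunit, which forms the peptide bond. Each subunit carries its proteins in a fixed stoichiometry, and proteins made in excess are degraded. Most mammalian ribosomal protein messenger RNAs begin with a cytosine followed by a run of pyrimidines, the terminal oligopyrimidine (TOP) tract, through which growth signalling sets their translation. In ES cells self-renewal and differentiation are known to go with differences in translation and ribosome production.

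Start sites are shown for 4 of the 5 canonical genes that followed the other members most closely over cells, and for 3 paralogs that were lower in one of the cell clusters described below. Sequences are those of RefSeq for the build GRCm38.p6, from 60 bases before the annotated start to 20 bases from it on. The members' own counts were made on mm9, so these coordinates belong to RefSeq alone. Capitals mark a TOP tract, defined as a C followed by at least 4 more pyrimidines (C or T) beginning within 5 bases of the annotated start. The Rps23 stretch lay at chr13:90923062-90923141 on the plus strand, Rps28 at chr17:33824543-33824622 on the minus strand, Rpl14 at chr9:120571457-120571536 on the plus strand and Rps18 at chr17:33955646-33955725 on the minus strand. The Rpl22l1 stretch lay at chr3:28805448-28805527 on the plus strand, Rpl39l at chr16:10170168-10170247 on the plus strand and Rpl10l at chr12:66284382-66284461 on the minus strand.
Rps23: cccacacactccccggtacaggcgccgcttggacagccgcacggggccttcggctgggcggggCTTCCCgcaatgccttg
Rps28: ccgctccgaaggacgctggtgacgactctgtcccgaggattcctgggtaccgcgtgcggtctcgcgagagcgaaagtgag
Rpl14: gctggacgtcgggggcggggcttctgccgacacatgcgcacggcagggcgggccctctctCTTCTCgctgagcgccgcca
Rps18: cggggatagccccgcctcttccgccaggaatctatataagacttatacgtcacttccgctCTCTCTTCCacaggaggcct
Rpl22l1: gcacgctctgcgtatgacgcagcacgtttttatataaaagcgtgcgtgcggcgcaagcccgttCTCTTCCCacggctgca
Rpl39l: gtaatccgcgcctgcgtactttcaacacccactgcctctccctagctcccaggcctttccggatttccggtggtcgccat
Rpl10l: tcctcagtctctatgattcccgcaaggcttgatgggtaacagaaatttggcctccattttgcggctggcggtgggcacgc

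The tract stood at or near the start of Rps23, Rpl14, Rps18 and Rpl22l1, and was not found there in Rps28, Rpl39l or Rpl10l. Among the 56 canonical members with an entry, 27 (48.2%) had a tract within 5 bases of an annotated start, against 21.2% of 27025 genes. With the tract required to begin at the start itself, the shares were 13 of 56 (23.2%) and 3.01%. Of the 7 paralogs with an entry, 2 held a tract within 5 bases. In windows from 250 bases before the start to 50 after it, CCGGAA on either strand, the core that ETS-family factors such as GABP bind, was present in 57.1% of canonical members and 16.7% of all genes. CACGTG, the E-box bound by Myc among others, was present in 10.7% and 8.09%. TATAAA between 40 and 20 bases before the start, on either strand, was found in 0 of the 56 canonical members and 2.78% of all genes. A match describes the letters in the window and is not a binding site, and an annotated start can differ from the start used in these cells.

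Ribosomal protein genes took 5.18% to 11.0% of a cell's reads, with a median of 7.34% and a mean of 7.38% ± 1.15 (SD over 48 cells). The exact binomial 95% interval of a single cell's share was at most 0.0251 percentage points to either side and covers counting error only, since the reads carry no molecular identifiers and PCR copies count again. Cell 18 (11.0%) and cell 44 (10.2%) stood highest and cell 38 (5.18%) lowest. The small subunit genes took 2.12% to 4.54% of reads, and those of the large subunit and stalk 2.92% to 6.17%. Their ratio was far steadier than either: the small to large ratio ran from 0.636 to 0.802 with a median of 0.704 and a coefficient of variation of 5.03%, against 15.6% for the members' share itself. Across the 35 cells of the larger cluster described below, the subunit shares gave a Spearman rho of 0.935; both come from the same libraries and share their denominator.

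**Figure D1:**
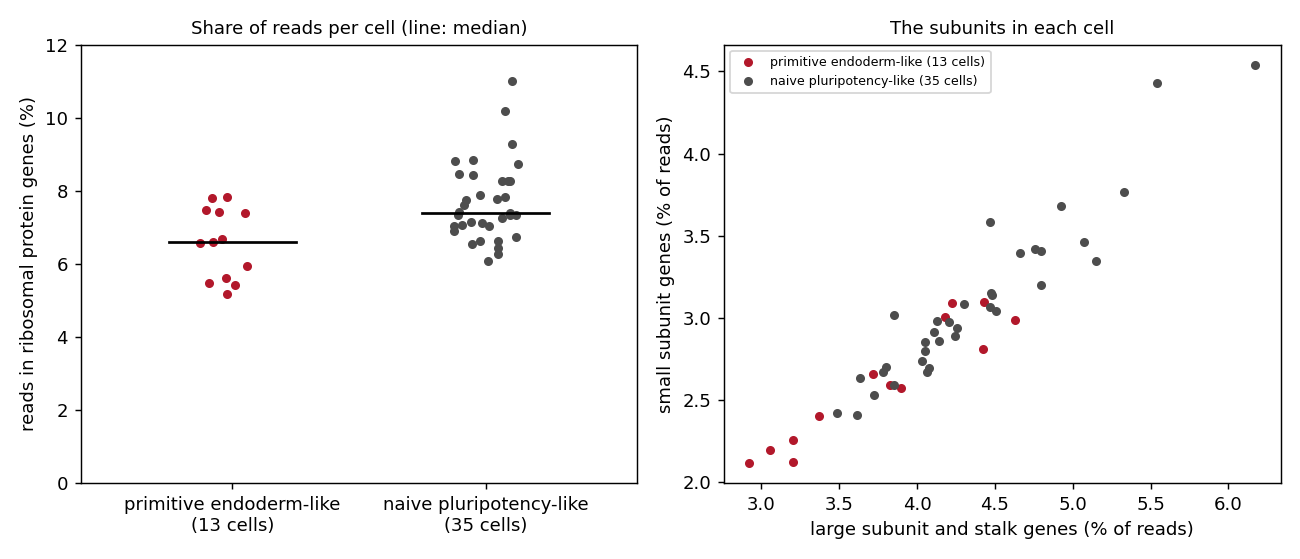
The left plot gives the percentage of each cell's reads in ribosomal protein genes by cluster, with the median as a line, and the right plot sets small subunit genes against large subunit and stalk genes, both as percent of reads, with 1 point per cell. Medians were 6.60% in the primitive endoderm-like and 7.39% in the naive pluripotency-like cells, the clusters overlap, and cells fall along a single band on the right.

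Levels were compared between genes as CPM, the counts relative to the scaled library total, per kilobase of coding sequence. Rpl41, which encodes the smallest ribosomal protein, stood highest at 23146 CPM per kb; its coding sequence is 75 bases, shorter than its untranslated parts, so division by coding length raises it. Other members with high levels were Rps14 (5381), Rpl4 (4088), whose protein has a loop lining the exit tunnel, and Rps29 (4017 CPM per kb). The coding sequence of Rps29 is also short, at 168 bases, and by CPM alone this gene ranked 44 among the members. Rpl32 averaged 3907, Rps20 3663 and Rps3, whose protein lies where the messenger RNA enters, 3469 CPM per kb. Genes of both subunits were thus among the highest. The stalk genes, whose proteins recruit translation factors, stood within the main body: Rplp2 averaged 2707, Rplp1 2070 and Rplp0 1606 CPM per kb.

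A few canonical genes stood far below the rest. Rpl26, whose protein also binds Trp53 messenger RNA, averaged 21.6 CPM per kb, Rps27 23.4, Rpl30 32.3 and Rpl34 54.7. Rps27 had no read in 20 of 48 cells, while its lowest, median and highest cells were at 0, 1.78 and 51.3 CPM. Rpl26 was between 0.154 and 40.2 CPM with a median of 7.07, and it had a read in every cell. All 4 share sequence with other annotated genes: 100% of the 50-base windows of the Rps27 coding sequence occur in another gene of the GENCODE M21 annotation, 87.3% for Rpl26, 83.1% for Rpl30 and 72.2% for Rpl34. The sources used here do not say how reads that match several places were counted, so these low levels are uncertain. The same holds more widely, since 68 of 84 members with a coding sequence shared over 50% of windows (median 90.8%) and 4 shared none, among them Rpl39l, Rpl3l and Rps19bp1. Rps23 (1774 CPM per kb) also shared 100%, as did Rps29 (4017 CPM per kb) and Rpl41, whose levels are raised by their short coding lengths. The part of sharing in the low levels was not tested. The 44 members sharing over 90% had a median of 1307 CPM per kb, against 2145 for the 16 sharing under 50%, with a Spearman rho of -0.17 over 84 genes, which are not independent.

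**Figure D2:**
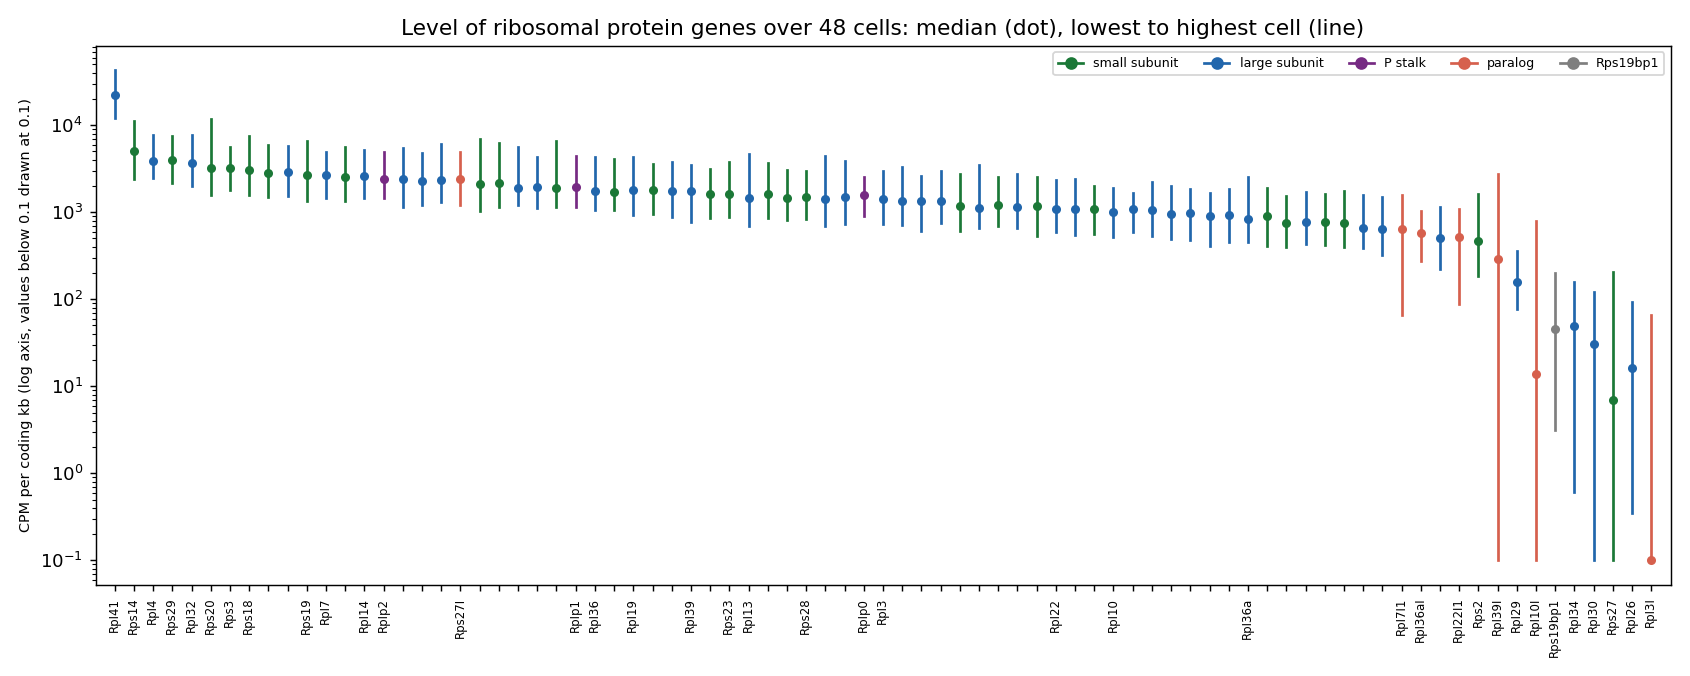
Of the 84 members with a coding length, 81 are drawn and the others are not reported here; each runs from its lowest to its highest cell with the median as a dot, as CPM per coding kb on a log axis, ordered by mean level and coloured by class, with names for the genes described in the text. Most members lie within a narrow band and a tail at the right holds Rpl39l, Rpl29, Rpl10l, Rps19bp1, Rpl34, Rpl30, Rps27, Rpl26 and Rpl3l, while Rps27l lies in the main band.

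Nearly every member varied less between cells than the trend over all genes at its level. Each gene's variance of log2(CPM + 1) was set against the trend fitted over all 11746 genes with scran's modelGeneVar. None of the 85 members was called above the trend at a Benjamini-Hochberg adjusted p under 0.05 by scran, against 2.03% of all genes. With 85 members, a count of 0 is near that share. The count was also 0 at an unadjusted p under 0.05 and in each of 11 alternative fits. In all, 80 of 85 members lay below the trend, against 49.4% of all genes; 26 members are among the 100 most abundant genes, so the trend there is partly fitted on them, and 82 lay below it when it was fitted without them. These p-values set a gene against other genes in the same cells and do not extend to other cells. The median member had a standard deviation of 0.48 over cells on the log2 scale and 0.03 between the lanes of a cell. Lanes differed in 0 of 85 members by a chi-square test with Benjamini-Hochberg adjustment, as in 0% of 14712 genes, and 3 members had an unadjusted p under 0.05.

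The members with the most variance relative to the trend were mostly paralogs. Rpl10l, a retrogene copy of Rpl10 known from the testis, had a variance of 8.70 against a trend of 6.11 (scran adjusted p = 0.906). Rpl39l, likewise known from the testis, had 6.49 against 4.79 (adjusted p = 0.906). Rpl7l1 (0.67 against 0.58), Rps4y2 (0.51 against 0.47) and Rps20 (0.32 against 0.30) were just above the trend. Rpl13, Rps19, Rpl3l, Rpl41 and Rps2 followed, each just below it, by 0.01 to 0.05. The farthest below were Rpl26 (1.14 against 6.18), Rpl30 (1.41 against 6.18), Rpl34 (1.65 against 5.79), Rps19bp1 (1.75 against 5.45) and Rpl29 (0.29 against 2.44), which are among the members with the lowest levels.

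**Figure D3:**
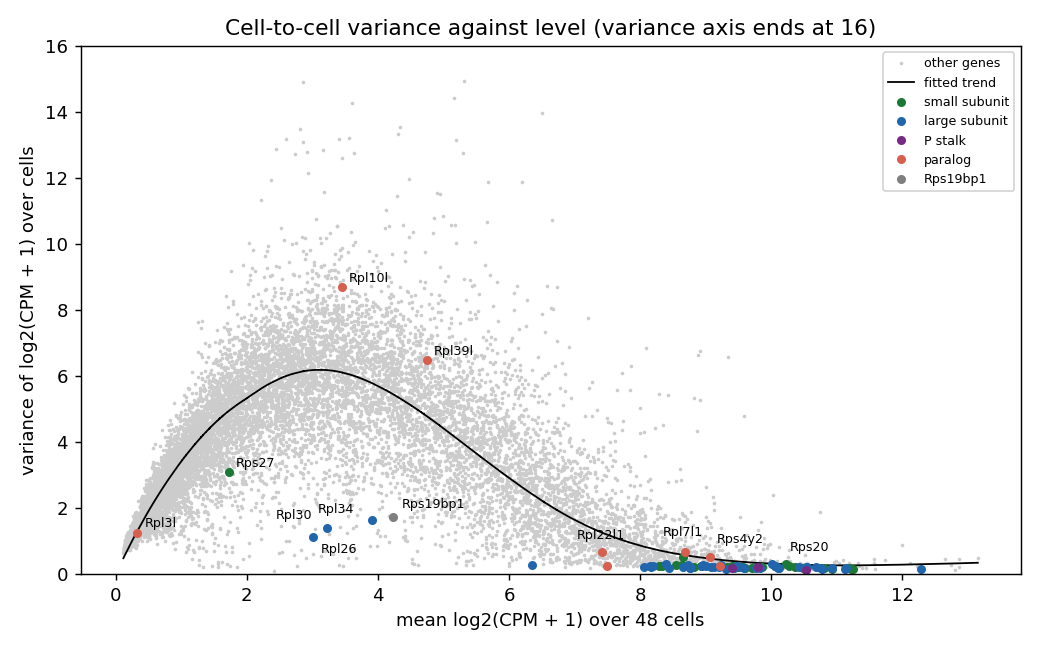
The variance of log2(CPM + 1) over 48 cells is plotted against its mean for 11746 genes in grey, with the fitted trend as a line and members coloured by class; the axis ends at 16, and some other genes lie beyond it. Members crowd along the floor at the right, Rpl10l (8.70) and Rpl39l (6.49) lie above the line, and Rpl26, Rpl30 and Rpl34 lie far under it.

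As a share of the members' own reads, which needs no scaling factor, canonical genes had a median coefficient of variation of 16.6% over cells, and 57 of 76 were under 20%. Rpl14 was steadiest at 8.72%, with 1.89% to 2.98% of member reads in a cell, followed by Rps18 (10.3%) and Rps14 (11.3%). Rps2 was the least steady of the well-expressed canonical genes at 54.0%. Rpl10l (148%), Rpl39l (114%) and Rpl3l (486%) varied most widely among the paralogs.

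The members moved together over cells, to a degree that depended on the scaling. Within the 35 naive pluripotency-like cells, the mean Spearman rho over pairs was 0.691 for the 76 canonical genes with TMMwsp factors and 0.365 with library size alone. Over all 85 members the values were 0.610 and 0.307. The members' TMMwsp-scaled level had a rho of -0.946 with the number of genes detected, and their percentage of reads a rho of -0.543. With the number of genes detected regressed out, the mean rho was 0.309 for canonical genes and 0.260 for all members. Other translation genes measured the same way were lower at both scalings. The 76 mitochondrial ribosomal protein genes had 0.084 with TMMwsp and 0.027 with library size, 34 initiation factors 0.109 and 0.002, 46 ribosome biogenesis genes 0.109 and 0.034, and 11 elongation and ribosome-bound genes 0.402 and 0.089. These lists differ from the members in level, and a gene with fewer reads has more counting noise; the part of level in the difference was not tested.

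Each member was also set against the sum of the other 84. Canonical genes had a median rho of 0.875 with TMMwsp factors, and 58 of 76 exceeded 0.8; with library size the median was 0.650. The highest were Rps23 (0.962), a protein of the decoding centre, Rps28 (0.955), Rpl36 (0.954), Rpl14 (0.952) and Rps18 (0.941), which with library size gave 0.802, 0.791, 0.896, 0.843 and 0.827. The lowest were Rpl10l (-0.070), Rps27 (-0.066), Rpl3l (-0.020), Rps19bp1 (0.140) and Rpl7l1 (0.218). Rps2 was the lowest well-expressed canonical gene at 0.269, and at -0.071 with library size; 84.1% of its windows are shared with other genes. Of the paralogs, Rpl22l1 (0.670), Rps4y2 (0.665), Rpl36al (0.665) and Rps27l (0.623) had higher values with TMMwsp than Rpl39l (0.313). With library size these were 0.283, 0.147, 0.151 and 0.230, and 0.146 for Rpl39l, so that Rps4y2 and Rpl36al were level with it.

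**Figure D4:**
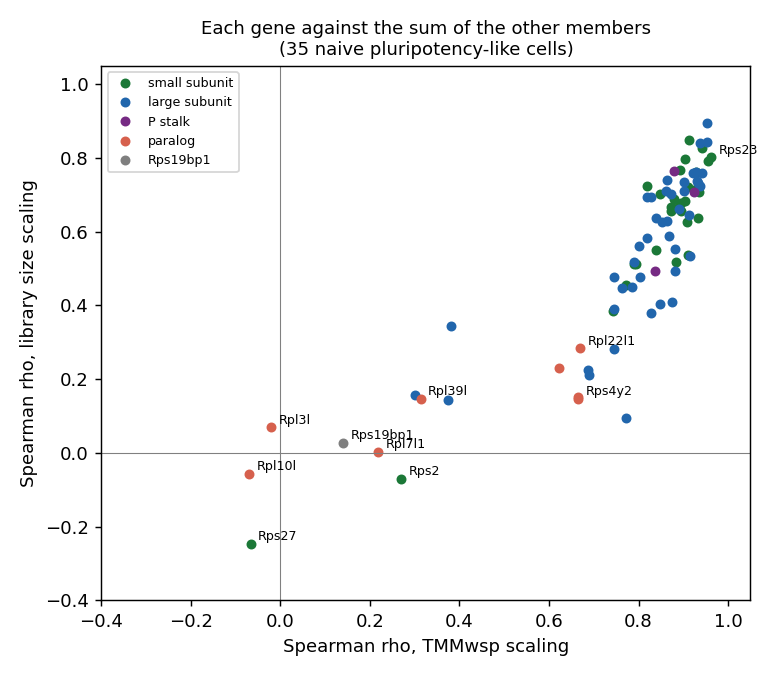
Each point is a member's Spearman rho with the sum of the other members over 35 naive pluripotency-like cells, with TMMwsp scaling on the horizontal and library size scaling on the vertical axis, coloured by class. Most canonical genes lie at the upper right, and Rps27, Rpl10l and Rpl3l lie near or below 0.

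Genes outside the rule also followed the members on the TMMwsp scale, and with library size most of those named had far lower values. Among non-member genes averaging 10 reads or more, other than the symbols the rule sets aside, Fau, which encodes a ubiquitin-like protein fused to Rps30, had a rho of 0.872. With library size it had the highest rho, 0.712. Others among the first 10 with TMMwsp were 1810006K21Rik (0.852), Atp5e (0.844) of the ATP synthase, Cox6c (0.833) and Cox7c (0.799) of cytochrome oxidase, Khsrp (0.824), an RNA-binding protein, Lars2 (0.819), a mitochondrial leucyl-tRNA synthetase, Polr2k (0.811), an RNA polymerase subunit, and Btf3 (0.792), part of the nascent polypeptide-associated complex. With library size 1810006K21Rik had 0.514, Btf3 0.496, Polr2k 0.451, Khsrp 0.406, Atp5e 0.389, Cox7c 0.369, Lars2 0.277 and Cox6c 0.269. The first 10 with library size shared 3 genes with these first 10, Fau and 1810006K21Rik among them.

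Clustering on other genes, with members left out, divided the cells into 13 primitive endoderm-like and 35 naive pluripotency-like cells. Allowing members among the clustering genes added 1 of them and left all 48 cells in place. Marker genes were not left out of the clustering genes, so marker values are not independent of the clusters. Summed primitive endoderm markers were 11110 to 44580 CPM in the primitive endoderm-like cells and 53.8 to 1497 CPM in the naive pluripotency-like cells. Summed naive markers were 685 to 6530 CPM and 3634 to 15230 CPM. Of the 17, 14 had higher means in the naive pluripotency-like cells and 3 (Klf4, Klf5 and Tbx3) lower ones. Summed primed epiblast markers were 47.2 to 1056 CPM (median 154.5) and 7.28 to 1968 CPM (median 295.2). All 6 primed genes tested had higher means in the naive pluripotency-like cells, so that name does not set them apart from a primed state. Summed trophectoderm markers were 204 to 3955 CPM (median 980) and 0.933 to 1937 CPM (median 41.4), with Cdx2 at 0 in all cells. Of the 5 trophectoderm genes tested, Krt8 and Krt18 had means higher by a ratio of 2 or more in the primitive endoderm-like cells. Eomes and Tfap2c had means lower by that ratio, and Gata3 was level. Fibroblast markers reached at most 36.1 CPM in any cell, and markers of the state resembling 2-cell embryos at most 0.191 CPM. Both clusters come from the same sample and cells are not replicates, so the values below are descriptions with no test.

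The ribosomal share overlapped between clusters. It was lowest at 5.18%, median 6.60% and highest at 7.83% in primitive endoderm-like cells, and 6.07%, 7.39% and 11.0% in naive pluripotency-like cells. Pooled over cells, it was 6.57% of 102577385 reads and 7.69% of 240038016 reads. The small to large ratio had medians of 0.705 and 0.704. The ribosome's canonical genes were close to level: their log2 ratio of mean CPM, primitive endoderm-like over naive pluripotency-like, ran from -0.62 (Rps20) to 0.16 (Rpl19), with a median of -0.18, and the median over all 11746 genes was -0.22. No canonical gene reached a ratio of 2 in either direction. Among all 85 members 0 were higher by a ratio of 2 or more, against 18.2% of genes, and 4 were lower by it, against 27.7%. In all, 76 of the 85 ratios were below 1 and 9 above it, against 6813 and 4933 of all 11746 genes; with scran's size factors the members' counts were 66 and 19.

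All 4 members past that ratio were paralogs. Of these, Rpl3l met the minimum of 10 reads only through the naive pluripotency-like cells, which held 511 of its reads against 6. Its low ratio is therefore not independent of that minimum. Rpl10l had a lowest, median and highest value of 0, 0.167 and 78.6 CPM in primitive endoderm-like cells and 0, 27.2 and 506 CPM in naive pluripotency-like cells. It reached 10 CPM in 3 of 13 primitive endoderm-like and 21 of 35 naive pluripotency-like cells, and the ranges overlap. Its log2 ratio was -2.71, and -3.84 without cell 2, which held the 78.6 CPM. Rpl39l had 0, 9.04 and 55.2 CPM in primitive endoderm-like cells and 0.111, 77.4 and 419 CPM in naive pluripotency-like cells. Its log2 ratio was -2.67, between -3.07 and -2.51 without any 1 cell, and 6 of 13 primitive endoderm-like against 28 of 35 naive pluripotency-like cells reached 10 CPM. Rpl10l and Rpl39l had a Spearman rho of 0.422 with each other over the 35 naive pluripotency-like cells. Their canonical partners differed little: Rpl10, needed late in large subunit maturation, had a log2 ratio of 0.11, and Rpl39, a protein of the exit tunnel, -0.11. Neither paralog shares most of its coding windows with other genes (12.5% for Rpl10l, 0% for Rpl39l).

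Rpl22l1, the paralog of Rpl22, had 32.6, 98.4 and 233 CPM in primitive endoderm-like cells and 67.9, 212 and 401 CPM in naive pluripotency-like cells. The ranges overlap, and the log2 ratio was -1.05; 84.2% of its windows occur in other genes, so its level and its share of the pair are uncertain. It came to -0.97, -0.97 and -0.98 without cell 3, cell 33 or cell 38, all primitive endoderm-like, and thus within a ratio of 2. Rpl22 itself had a log2 ratio of -0.01. As a share of the pair per coding kb, Rpl22l1 had a median of 21.4% (6.53% to 33.3%) in primitive endoderm-like cells and 36.1% (18.4% to 46.2%) in naive pluripotency-like cells. Rpl3l, the paralog of heart and skeletal muscle, had a read in 1 of 13 and 6 of 35 cells. Its log2 ratio of -5.75 rests on few cells: it was -3.49 without cell 18, which held 80.6 CPM, and without the only primitive endoderm-like cell with reads there is no ratio.

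**Figure D5:**
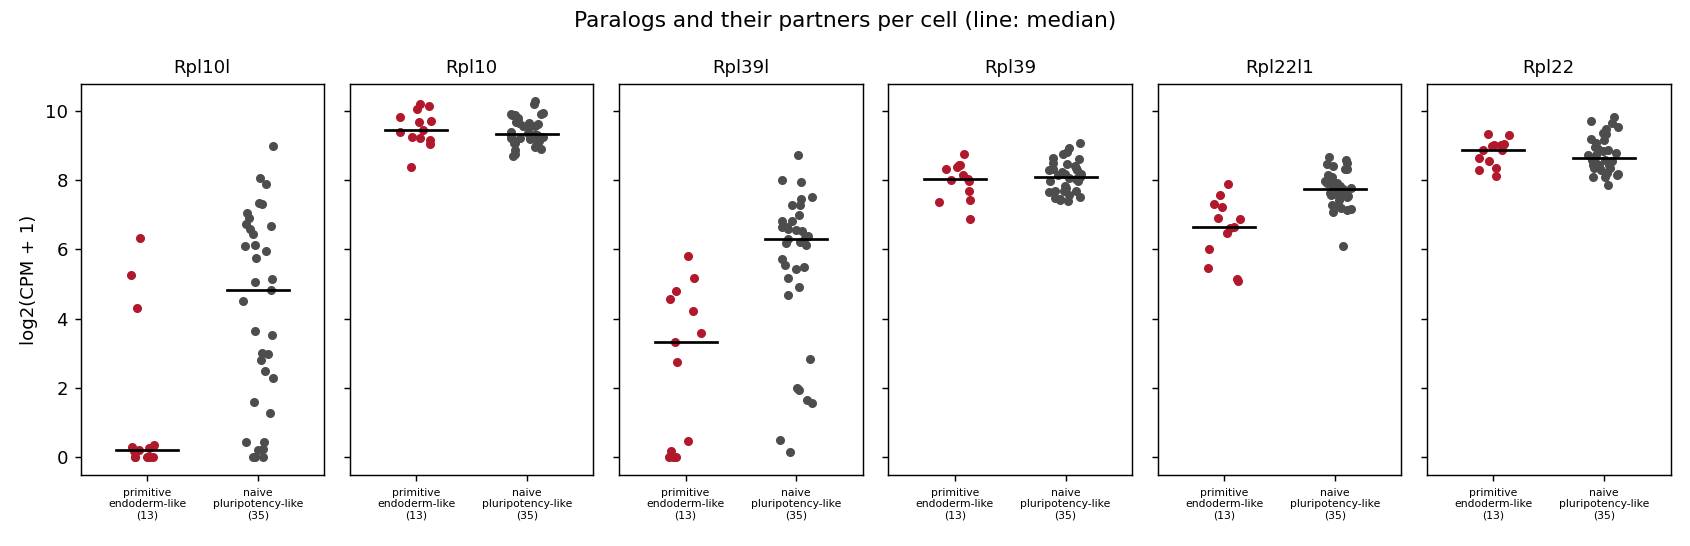
The log2(CPM + 1) of 3 paralogs and their canonical partners is shown for each cell, with 13 primitive endoderm-like cells on the left of each plot, 35 naive pluripotency-like cells on the right and the median as a line. Rpl10l, Rpl39l and Rpl22l1 have lower medians in the primitive endoderm-like cells, with overlap, and Rpl10, Rpl39 and Rpl22 lie at like levels in both.

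The remaining paralogs stood closer to level. Rps4y2, which RefSeq lists as a transcribed pseudogene under the symbol Rps4l, had a log2 ratio of -0.93, with 148, 354 and 671 CPM in primitive endoderm-like cells and 259, 653 and 1180 CPM in naive pluripotency-like cells. It has no coding length here, so its shared sequence was not measured and its reads are uncertain. Rps27l, a target of p53 in human cells, had the highest ratio of all members at 0.32, with a median of 734 CPM in primitive endoderm-like cells and 564 CPM in naive pluripotency-like cells. Rpl36al followed at 0.19, then the canonical genes Rpl19 (0.16), Rpl10 (0.11) and Rpl41 (0.10); each has ranges that overlap between clusters. Rps27l made up a median of 99.8% and 99.7% of the pair with Rps27, whose own counts are uncertain. Rpl36al made up 46.7% and 36.7% of the pair with Rpl36a, both of which share all their windows with other genes. Rpl7l1 made up 20.4% and 19.1% of the pair with Rpl7 (log2 ratio -0.06).

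Genes that make or regulate ribosomes were tested for variance in the same fit, in which 2.03% of all genes were called. Of 46 ribosome biogenesis genes 1 was called above the trend, Dkc1, the pseudouridine synthase of H/ACA particles (variance 1.98 against a trend of 0.73, scran adjusted p = 0.00116). It averaged 231 CPM in primitive endoderm-like and 463 CPM in naive pluripotency-like cells. Of 16 transcription and TOP regulators 1 was called, Mycn (3.48 against 1.31, adjusted p = 0.00157), which averaged 257 and 293 CPM. Of 6 genes on the axis from free ribosomal proteins to p53, 3 were called: Trp53 (2.41 against 0.32, adjusted p = 2.4e-57), Mdm2 (9.06 against 3.35, adjusted p = 0.00106) and Ccng1 (3.46 against 1.13, adjusted p = 1.81e-05). Trp53 averaged 527 CPM in primitive endoderm-like and 1686 CPM in naive pluripotency-like cells, and Ccng1, a p53 target, 525 and 241 CPM. Mdm2 averaged 212 and 235 CPM. None of 13 RNA polymerase I genes, 34 initiation factors or 11 elongation and ribosome-bound genes was called by scran, with 0, 1 and 0 at an unadjusted p under 0.05. Of 76 mitochondrial ribosomal protein genes 1 was called, Mrpl45; this share and that of the biogenesis genes are near the share over all genes. Below the trend lay 80 of 85 members (94.1%), against 61 of these 76 genes (80.3%). The elongation and ribosome-bound genes were close to the members, with 10 of 11 below it (90.9%). Below it also lay 24 of 34 initiation factors (70.6%), 9 of 13 RNA polymerase I genes (69.2%) and 18 of 46 biogenesis genes (39.1%).

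The members' share of reads went with few of these genes over the 35 cells. Its Spearman rho was 0.514 with elongation and ribosome-bound genes, both as a percentage of reads. It was -0.075 with ribosome biogenesis genes, -0.220 with RNA polymerase I, 0.008 with initiation factors, 0.137 with mitochondrial ribosomal proteins and 0.040 with naive pluripotency markers. On the TMMwsp scale the same sums gave 0.898, 0.749, 0.533, 0.875, 0.793 and 0.584. The values thus differed widely between the scales. The scaling factor had a rho of -0.931 with the members' scaled level. That level is the share of reads divided by this same factor, so a negative value is partly built in.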

How the data were processed

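The authors deposited whole-number read counts per gene for 48 cells on 2 lanes each (96 samples), with no normalization. Tools listed in the submitters' processing notes are STAR 2.3.1z12, Subread 1.4.5-p1 and featureCounts, with the build mm9. Lanes were summed. Counts were scaled with edgeR 4.0.16 (TMMwsp) to CPM and taken as log2(CPM + 1). Variance trends came from scran 1.30.0 (modelGeneVar, one-sided, Benjamini-Hochberg) over genes averaging 10 reads or more. The procedure was also run on simulated counts in which some well counted genes had raised dispersion. The outcome of that run is not reported here, and it did not cover genes with few reads. Cells were clustered by Ward linkage on 5 principal components of the 500 genes farthest above the trend, without members. R 4.3.3 was used, and DESeq2 1.42.0 gave alternative size factors. Coding lengths (shortest principal transcript) and shared 50-base windows came from GENCODE M21.

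Members and lists were chosen with earlier results of these data known. Named members were the extremes by level (10 highest, 5 lowest), by variance relative to trend (10 and 5), by rho with the other members (5 and 5) and by cluster ratio (5 and 5), every paralog pair, Rps19bp1 and the gene nearest the minimum. Stalk genes, Rps2 and the extremes of read-share variation were named after their values were seen. Outside the members, the 10 genes of highest rho, list genes called variable and Fau were named. Some genes these rules take are not reported here. Marker genes called variable were 9 naive, 6 primitive endoderm, 1 primed epiblast and 1 trophectoderm; 0 of 1 tested mesoderm genes was called, and no gene of the fibroblast and 2-cell-like lists had enough reads. Doublets were not called, given 48 captured cells.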

Additional observations from a re-analysis of the deposited data

How the results depend on the processing

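Counts of members above the trend (0) and below it (80) kept within 1.5 times under all 11 alternatives (0, and 77 to 82), as did the median share of reads (7.34%, 7.32% to 7.86%) under 5 and the number of members past a cluster ratio of 2 (4, 3 to 4) under 8. Coordination moved most: the mean rho over pairs of 0.610 came to 0.307 with library size, 0.375 with scran's factors, 0.397 with cells thinned to the smallest total and 0.260 with genes detected regressed out. For the 76 canonical genes alone, an alternative chosen after seeing the data, library size gave 0.365 and regression on genes detected 0.309. The cause was not tested. The mean rho stayed within 0.536 to 0.691 under the other 7 alternatives. Among these, a pseudocount of 10 CPM could not change a Spearman rho and gave the same 0.610. Rpl22l1 was within a ratio of 2 with library size (-0.99), scran's (-0.90) and DESeq2's factors (-0.996) and thinning (-0.94). By medians Rpl3l had no ratio. No paired analysis was possible because all cells form a single group. Rps27, Rpl3l, Rpl10l, Rpl39l and Rpl30 each had cells with no read, where a low level and none cannot be told apart at this depth; how multiply matching reads were counted limits most levels.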

Other observations

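Reads assigned to Rn45s, the precursor of ribosomal RNA, made up 0.469% to 0.858% of reads in primitive endoderm-like cells and 0.460% to 1.6% in naive pluripotency-like cells. Over the 35 naive pluripotency-like cells this share had a Spearman rho of 0.033 with the ribosomal protein share and a Pearson r of 0.358. Cell 18, the cell with the highest ribosomal protein share, held 1.29% in Rn45s and 8299 genes with a read, and cell 44 held 0.686% and 8039 genes, the fewest of all cells.

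Among genes of ribosome production, 4 of 46 biogenesis genes were lower by a ratio of 2 or more in primitive endoderm-like cells and none was higher. They were Dkc1 (log2 ratio -1.002), Rrp12 (-1.72), Nat10 (-1.30) and Pno1 (-1.24). Ubtf, an RNA polymerase I factor, averaged 29.5 CPM in primitive endoderm-like and 118 CPM in naive pluripotency-like cells, and Myc 9.15 and 38.3 CPM. Cdkn1a, a p53 target, averaged 172 CPM in primitive endoderm-like and 47.0 CPM in naive pluripotency-like cells. Also on the p53 axis, Mdm4 averaged 92.9 and 81.8 CPM, while Mdm2 (212 and 235 CPM) and Bax (60.5 and 65.95 CPM) were slightly lower in primitive endoderm-like cells. These genes were chosen after their values were seen, they describe cells from a single sample, and 27.7% of all genes were lower by that ratio.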
